A study of Sus scrofa with 12 samples.

Results

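The genes described here serve the delivery of fatty acids to muscle fibres and their release from stored fat. LPL encodes lipoprotein lipase, which hydrolyses the triglycerides of circulating lipoproteins at the capillary wall. FABP3 encodes the heart-type fatty acid-binding protein, which carries fatty acids through the cytosol of muscle fibres. PNPLA2 encodes adipose triglyceride lipase, which takes the initial step in the breakdown of stored triglyceride. The members were all probe sets whose single gene symbol in the platform annotation was LPL, CD36, FABP3 or PNPLA2, and they comprised 3 of the 6765 genes with a single-symbol probe set and 5 of the 23999 probe sets tested. LPL and PNPLA2 had 2 probe sets each and FABP3 had 1. No probe set carried CD36, a fatty acid receptor and transporter, as its single symbol, so that CD36 was not analysed here.

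The semimembranosus muscle of the thigh was sampled from 3 female commercial hybrid pigs of about 160 kg, raised on the same farm and stunned with CO2. Portions of the same muscle were taken at 20 min, 2 h, 6 h and 24 h after death while the carcass was in the cold chain. Each portion was hybridised to its own 1-colour Affymetrix porcine array, which gave 12 arrays, 3 at each time, and every later time was set against the 20 min portion of the same pig. No living muscle was among the groups used here, and the breed composition of the hybrid was not stated.

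In working muscle, fatty acids reach the fibre in large part through hydrolysis of lipoprotein triglyceride by lipoprotein lipase, cross the membrane with the help of transporters, and are carried by binding proteins to mitochondria or to lipid droplets. Droplet triglyceride is broken down again by a chain of lipases that starts with adipose triglyceride lipase. Slow, oxidative fibres are known to carry more of this machinery than fast fibres. LPL and PNPLA2 are also strongly used by fat cells, which lie between the fibres as intramuscular fat. The samples were pieces of whole muscle, so fewer cells of a type and less RNA per cell cannot be told apart.

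The values were log2 intensities after RMA, and each level below is on that scale. The array medians lay between 5.89 and 5.94, and any 2 arrays correlated with r between 0.986 and 0.997 across probe sets. Markers of muscle fibres were bright on every array, with a mean of 13.76 to 13.86 at 20 min and 13.87 to 13.93 at 24 h over 8 genes. The 20 min array of pig 3 stood apart for many of the genes below, and the members' changes from 20 min are given with and without it. In limma's F test for any time difference, 1 of 23999 probe sets passed after Benjamini-Hochberg adjustment, which is 0.00417%, and none of the 5 members was that probe set.

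All 5 probe sets had higher means at 2 h, 6 h and 24 h than at 20 min, a pattern shared by 30.0% of all probe sets. None of these differences passed the adjusted threshold of 0.05. At 24 h the brighter LPL probe set, FABP3 and the brighter PNPLA2 probe set were 1.32-fold to 1.36-fold above 20 min. The differences of these 3 probe sets at 24 h varied widely between the pigs, between 0.01 and 0.15 in pig 1 and between 0.75 and 0.87 in pig 3.

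**Figure D1:**
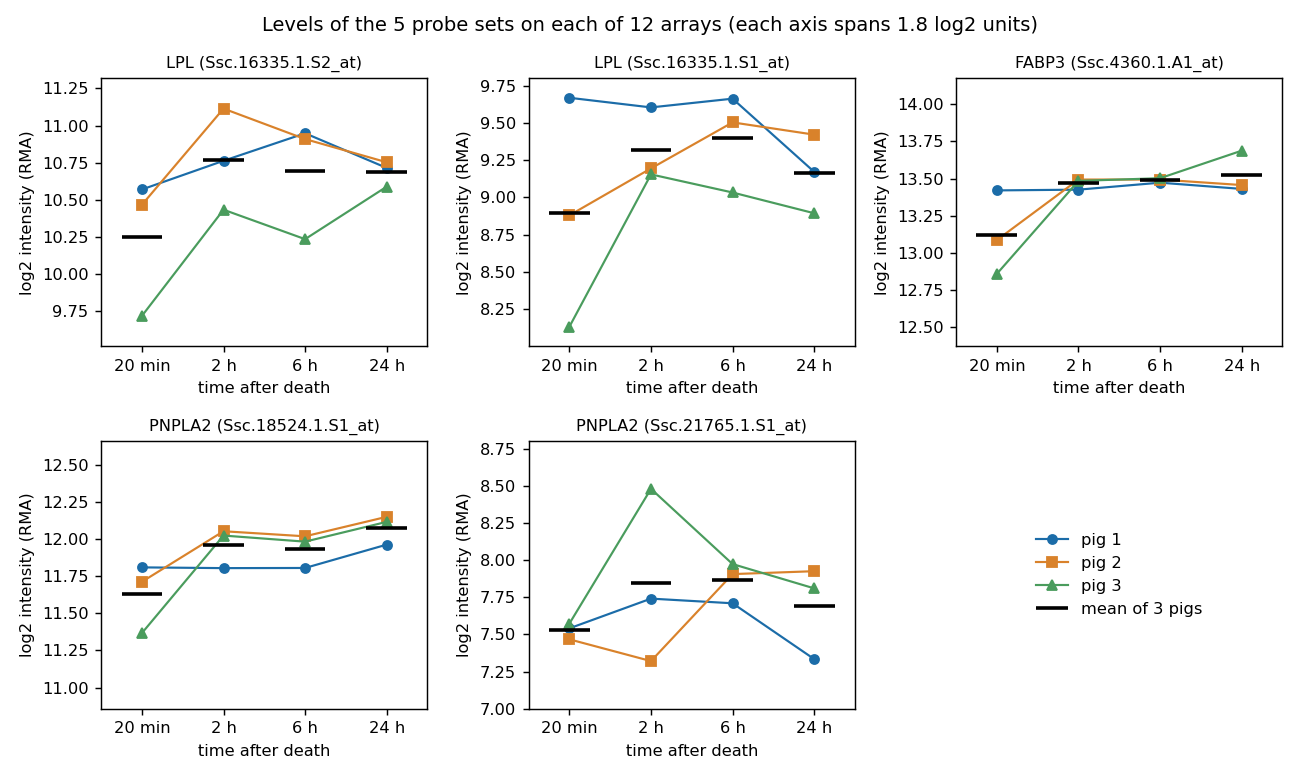
Log2 intensity of each of the 5 probe sets (vertical axis) at the 4 times after death (horizontal axis), with a line for each pig and a black bar for the mean of 3 pigs. Pig 3 was the lowest of the pigs at 20 min for both LPL probe sets, FABP3 and the brighter PNPLA2 probe set, and the FABP3 levels of the 3 pigs lay between 13.43 and 13.49 at 2 h.

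LPL acts outside the fibre, at the capillary wall, after its secretion by muscle fibres and fat cells. Its brighter probe set (Ssc.16335.1.S2_at) had levels of 10.57, 10.47 and 9.72 in pigs 1, 2 and 3 at 20 min. At 2 h these were 10.76, 11.11 and 10.43, at 6 h 10.95, 10.91 and 10.24, and at 24 h 10.72, 10.75 and 10.59. Pig 3 was the lowest animal at all 4 times, and the spread between the pigs was narrowest at 24 h. The 20 min portions averaged 10.25 ± 0.46 (SD, n = 3), those of 2 h 10.77 ± 0.34, of 6 h 10.70 ± 0.40 and of 24 h 10.69 ± 0.09. Every pig was above its own 20 min level at each later time. At 24 h the groups did not overlap, while at 2 h and at 6 h the groups overlapped because the later values of pig 3 lay below the 20 min values of pigs 1 and 2.

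The change of this LPL probe set from 20 min was 0.52 ± 0.28 on the log2 scale at 2 h (SD over 3 pigs), a 1.43-fold difference with a 95% interval of 1.17-fold to 1.75-fold in limma (adjusted p = 0.579). At 6 h it was 0.45 ± 0.07 (adjusted p = 0.488) and at 24 h 0.43 ± 0.38 (limma adjusted p = 0.260). The 6 h change was the most even across the animals, ranging over the pigs only between 0.38 and 0.52. Leaving out pig 3 gave a 24 h change of 0.22, and leaving out only the 20 min array of that pig gave 0.32. The 2 h change was 0.42 and 0.40 under the same omissions, and the 6 h change 0.41 and 0.33. Levels at 2 h, 6 h and 24 h did not differ beyond their spread, the difference of 24 h from 2 h being -0.08 ± 0.26 with a limma 95% interval of -0.38 to 0.21.

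The dimmer LPL probe set (Ssc.16335.1.S1_at) had levels of 9.67, 8.88 and 8.13 in pigs 1, 2 and 3 at 20 min, a range of 1.54. At 2 h they were 9.61, 9.20 and 9.16, at 6 h 9.66, 9.50 and 9.03, and at 24 h 9.17, 9.42 and 8.89. Its groups overlapped at every time, and the probe sets of LPL disagreed in pig 1 at 24 h, where this one was 0.50 below its 20 min level and the brighter one 0.15 above. Its changes were 0.43 ± 0.55 at 2 h, 0.51 ± 0.47 at 6 h and 0.27 ± 0.67 at 24 h (limma adjusted p = 0.628, 0.530 and 0.574). The 24 h change dropped to 0.02 when pig 3 was left out, and likewise to 0.02 when only that pig's 20 min array was. Under the same omissions the 2 h change was 0.13 and 0.18, and the 6 h change 0.31 and 0.26. Leaving out pig 2 gave 0.13 at 24 h. Within pigs, the LPL probe sets correlated with r = 0.677 over the 12 arrays after each pig's mean was taken off, and with r = 0.405 over the 8 arrays of pigs 1 and 2.

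FABP3 binds fatty acids inside the fibre. Its probe set (Ssc.4360.1.A1_at) had levels of 13.42, 13.09 and 12.86 in pigs 1, 2 and 3 at 20 min. The levels were 13.43, 13.49 and 13.48 at 2 h, 13.47, 13.49 and 13.50 at 6 h, and 13.43, 13.46 and 13.69 at 24 h. The pigs differed at 20 min and were nearly alike at 2 h and 6 h, the SD being 0.282 for 20 min, 0.0373 for 2 h, 0.0156 for 6 h and 0.142 for 24 h. At each later time the lowest pig was above the highest pig of 20 min, which was pig 1, by a narrow margin.

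The FABP3 changes of pigs 1, 2 and 3 from 20 min were 0.0052, 0.41 and 0.63 at 2 h. At 24 h they were 0.011, 0.37 and 0.83, so that pig 1 scarcely moved. The mean changes were 0.35 ± 0.32 at 2 h, 0.37 ± 0.30 at 6 h and 0.40 ± 0.41 at 24 h (SD over 3 pigs, limma adjusted p = 0.608, 0.507 and 0.260). The 24 h change corresponds to 1.32-fold, with a 95% interval of 1.09-fold to 1.60-fold. Leaving out pig 3 gave 0.19, and leaving out only that pig's 20 min array gave 0.24. The 2 h change was 0.21 and 0.18 under the same omissions, and the 6 h change 0.23 and 0.20. The 3 later times did not differ beyond their spread, 24 h being 0.06 ± 0.13 above 2 h with a limma 95% interval of -0.22 to 0.33.

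PNPLA2 acts at the surface of lipid droplets. Its brighter probe set (Ssc.18524.1.S1_at) had levels of 11.81, 11.71 and 11.37 in pigs 1, 2 and 3 at 20 min. They were 11.80, 12.05 and 12.02 at 2 h, 11.80, 12.02 and 11.98 at 6 h, and 11.96, 12.15 and 12.12 at 24 h. Pig 1 was the highest animal at 20 min and the lowest at each later time. At 24 h all 3 pigs lay above all 3 at 20 min, whereas at 2 h and 6 h pig 1 lay just below its own 20 min level.

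The PNPLA2 changes from 20 min were 0.33 ± 0.33 at 2 h, 0.31 ± 0.31 at 6 h and 0.45 ± 0.30 at 24 h (limma adjusted p = 0.592, 0.521 and 0.213). The 24 h change, a 1.36-fold difference with a 95% interval of 1.14-fold to 1.62-fold, was made up of 0.15, 0.44 and 0.75 in pigs 1, 2 and 3. Leaving out pig 3 gave 0.295, and leaving out only that pig's 20 min array gave 0.29. The 2 h change was 0.17 and the 6 h change 0.15 under either omission. From 6 h to 24 h the difference was almost the same in the 3 pigs, 0.16, 0.13 and 0.13, with a mean of 0.14 ± 0.01. Being higher at 24 h than at 6 h in all 3 pigs was seen at 18.3% of all probe sets, and the limma test, whose error pools all 4 times, gave an adjusted p = 0.802.

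The dimmer PNPLA2 probe set (Ssc.21765.1.S1_at) followed another course. Its levels were 7.54, 7.47 and 7.57 in pigs 1, 2 and 3 at 20 min, 7.74, 7.32 and 8.48 at 2 h, 7.71, 7.91 and 7.97 at 6 h, and 7.33, 7.93 and 7.81 at 24 h. Here the pigs agreed closely at 20 min, with an SD of 0.0543, and spread most at 2 h, with an SD of 0.586. At 6 h all pigs were above all 20 min values, and at 24 h pig 1 was below them. The changes were 0.32 ± 0.54 at 2 h, 0.34 ± 0.15 at 6 h and 0.16 ± 0.34 at 24 h (limma adjusted p = 0.681, 0.635 and 0.746). Leaving out pig 3 gave 0.027 at 2 h, 0.30 at 6 h and 0.13 at 24 h, and leaving out only that pig's 20 min array gave 0.20, 0.22 and 0.042. Without pig 2 the 24 h change was 0.015. The PNPLA2 probe sets correlated with r = 0.448 over the 12 pig-centred arrays and with r = 0.192 over the 8 arrays of pigs 1 and 2.

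**Figure D2:**
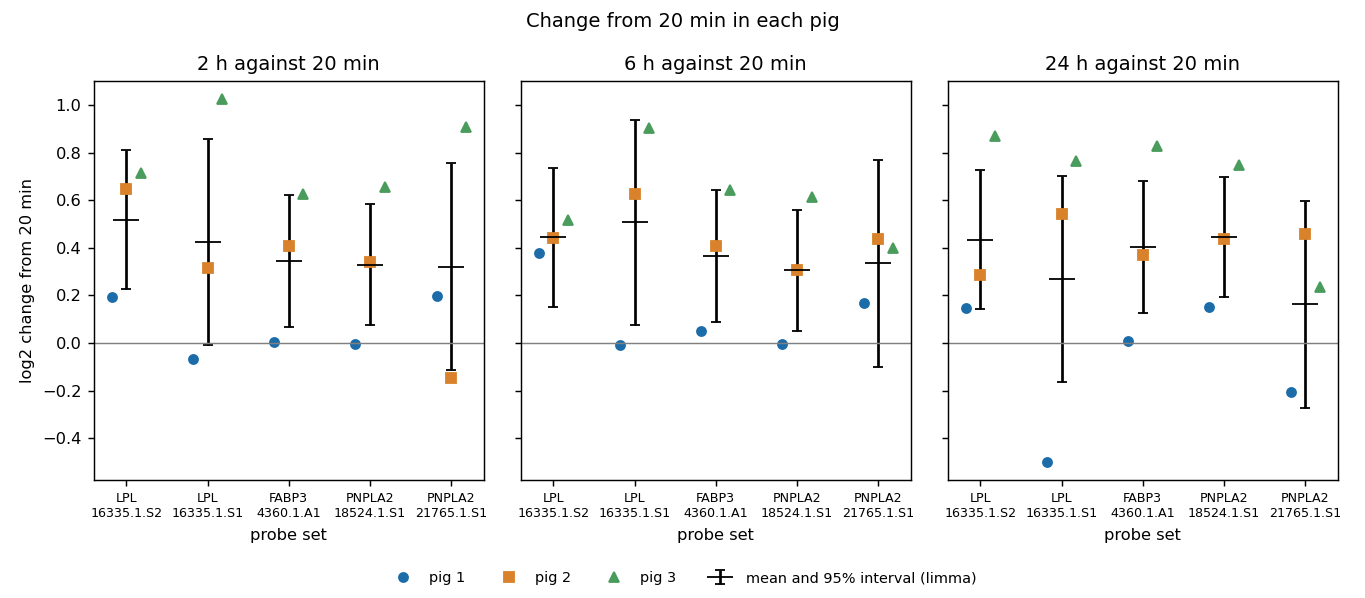
Log2 change from 20 min (vertical axis) of the 5 probe sets in each pig (coloured points) at 2 h, 6 h and 24 h, with the mean and its 95% interval from limma in black. Pig 3 lay above pig 2 and pig 2 above pig 1 in all 3 panels for every probe set other than the dimmer one of PNPLA2.

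Counted over the 5 probe sets, 3 had an unadjusted limma p under 0.05 with a higher mean at 2 h, where 4.01% of all probe sets did. At 6 h these were 4, against 4.29% of all, and at 24 h they were 3, against 6.41%. After adjustment over all probe sets, 0 members passed in any of the 6 pairwise comparisons. The share of all probe sets that passed was 0% (0 of 23999) at 2 h and at 6 h and 0.00417% (1) at 24 h against 20 min, and 0% between the later times. A level above that of 20 min in all 3 pigs was found for 2 members at 2 h (13.8% of all probe sets), 3 at 6 h (15.4%) and 3 at 24 h (17.8%). Groups without overlap, the later one higher, were found for 1 member at 2 h (4.20% of all probe sets), 2 at 6 h (4.24%) and 3 at 24 h (6.99%). The 3 comparisons share their 20 min arrays, and probe sets of 1 gene share their transcript, so these counts do not add up to separate observations.

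The pigs differed in the same way for most of the members. For 4 of the 5 probe sets the change was largest in pig 3 and smallest in pig 1, at 2 h, 6 h and 24 h alike, where 20.0%, 19.7% and 22.4% of all probe sets had that order. For the same 4, the 20 min array of pig 3 was the lowest of the 12 (16.9% of all probe sets) and the SD between pigs was highest at 20 min (31.0%). Differences between pigs made up 51.5% and 50.6% of the sum of squares over 12 arrays for the brighter and the dimmer LPL probe set. They made up 1.49% for FABP3, 8.29% for the brighter PNPLA2 probe set and 27.9% for the dimmer one. The time means held 33.4% and 21.2% for the brighter and the dimmer LPL probe set and 61.0% for FABP3. For the brighter and the dimmer PNPLA2 probe set they held 63.1% and 19.3%. Over all probe sets the median was 31.8% for pig and 21.0% for time. FABP3 and the brighter PNPLA2 probe set correlated with r = 0.955 over the 12 pig-centred arrays and with r = 0.842 over the 8 arrays of pigs 1 and 2. The brighter LPL probe set correlated with FABP3 at r = 0.903 and with PNPLA2 at r = 0.815 over the 12 arrays, and at r = 0.809 and 0.529 over those of pigs 1 and 2. The arrays behind each correlation come from 3 animals and share the 20 min array of pig 3. Leaving out pig 1, in which the changes were smallest, gave 24 h changes of 0.58 for the brighter LPL probe set, 0.60 for FABP3 and 0.59 for the brighter PNPLA2 probe set.

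Signs of other cell types and of RNA quality differed between the pigs, and their part in the results above was not tested. The mean of 9 slow-fibre contractile genes was 12.33, 12.38 and 12.39 at 24 h and 12.47, 12.13 and 12.12 at 20 min in pigs 1, 2 and 3, so that it was lower at 24 h in pig 1 and higher in the other pigs. The median changes of that list at 24 h were -0.04, 0.21 and 0.35, with 4 of 9 genes higher at unadjusted p under 0.05 in limma. Of all genes, 6.28% were higher and 8.71% lower at that threshold at 24 h. The 7 fast-fibre genes ranged from 14.09 to 14.15 at 24 h and from 14.13 to 14.19 at 20 min. The mean of 17 fibroblast and matrix markers ranged from 8.99 to 9.32 at 24 h and from 8.93 to 9.66 at 20 min, the highest value being that of pig 3, and 1 of the 17 was lower at unadjusted p under 0.05. The 15 macrophage and leukocyte markers ranged from 5.74 to 6.24 at 24 h and from 6.19 to 6.80 at 20 min, with medians of change of -0.21, 0.06 and -1.08 in pigs 1, 2 and 3, and 7 of the 15 were lower and 1 higher at unadjusted p under 0.05. The mean of 13 endothelial markers ranged from 7.09 to 7.49 at 24 h and from 7.11 to 7.19 at 20 min. Of the 13, 8 had a higher and 5 a lower mean at 24 h, and 3 were higher and 0 lower at unadjusted p under 0.05. The muscle fibre markers correlated with FABP3 at r = 0.893 over the 12 pig-centred arrays and with the brighter LPL and PNPLA2 probe sets at r = 0.881 and 0.851. With the dimmer LPL and PNPLA2 probe sets they correlated at r = 0.778 and 0.553. For the EF1A control, the signal of the 3′ probe set less that of the 5′ probe set, a sign of RNA degradation, changed by 0.38, -0.01 and 0.47 in pigs 1, 2 and 3 between 20 min and 24 h. The same difference changed by 0.09, -0.23 and -0.04 for actin and by 0.06, 0.01 and 0.04 for GAPDH. At 24 h the change was lowest in pig 2 for each of these controls. At 2 h it was lowest in pig 1 for EF1A and actin and in pig 3 for GAPDH. At 6 h it was lowest in pig 2 for EF1A and GAPDH and in pig 1 for actin.

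LPL and PNPLA2 are also used by fat cells, so markers of those cells are given here. The mean of 15 adipocyte markers ranged from 6.74 to 6.85 at 24 h and from 6.79 to 7.13 at 20 min, the highest being pig 3 at 20 min, where LPL, FABP3 and the brighter PNPLA2 probe set were at their lowest. ADIPOQ, the fat cell hormone adiponectin, was named outside the rule for naming genes and had a low mean level of 4.65 over 12 arrays. Its levels were 4.16, 4.37 and 4.59 at 24 h and 4.01, 5.57 and 6.52 at 20 min in pigs 1, 2 and 3. The ADIPOQ changes were thus 0.15, -1.20 and -1.92, of opposite sign to those of the members in pigs 2 and 3. Other markers of the list rose, LEP and LIPE by a mean of 0.27 each. FABP4, the fat cell counterpart of FABP3, changed by -0.54, 0.53 and -1.11 at 24 h. Over the list, 8 of the 15 markers had a higher and 7 a lower mean at 24 h, with a median change of 0.02 and medians of 0.01, 0.07 and 0.11 in pigs 1, 2 and 3. At unadjusted p under 0.05, 0 of the 15 were higher and 3 lower, where 6.28% and 8.71% of all genes were. Over the 12 pig-centred arrays the adipocyte mean correlated with FABP3 at r = -0.834, with the brighter LPL probe set at r = -0.751 and with the brighter PNPLA2 probe set at r = -0.791. With the dimmer LPL and PNPLA2 probe sets the r values were -0.482 and 0.014. Such negative values were not particular to fat cell markers. With FABP3 and the brighter LPL and PNPLA2 probe sets, the fibroblast and matrix mean had r values of -0.809, -0.672 and -0.751. The fast-fibre mean had -0.86, -0.842 and -0.705. With the dimmer LPL and PNPLA2 probe sets these were -0.734 and -0.321 for fibroblast markers and -0.652 and -0.211 for fast-fibre genes.

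**Figure D3:**
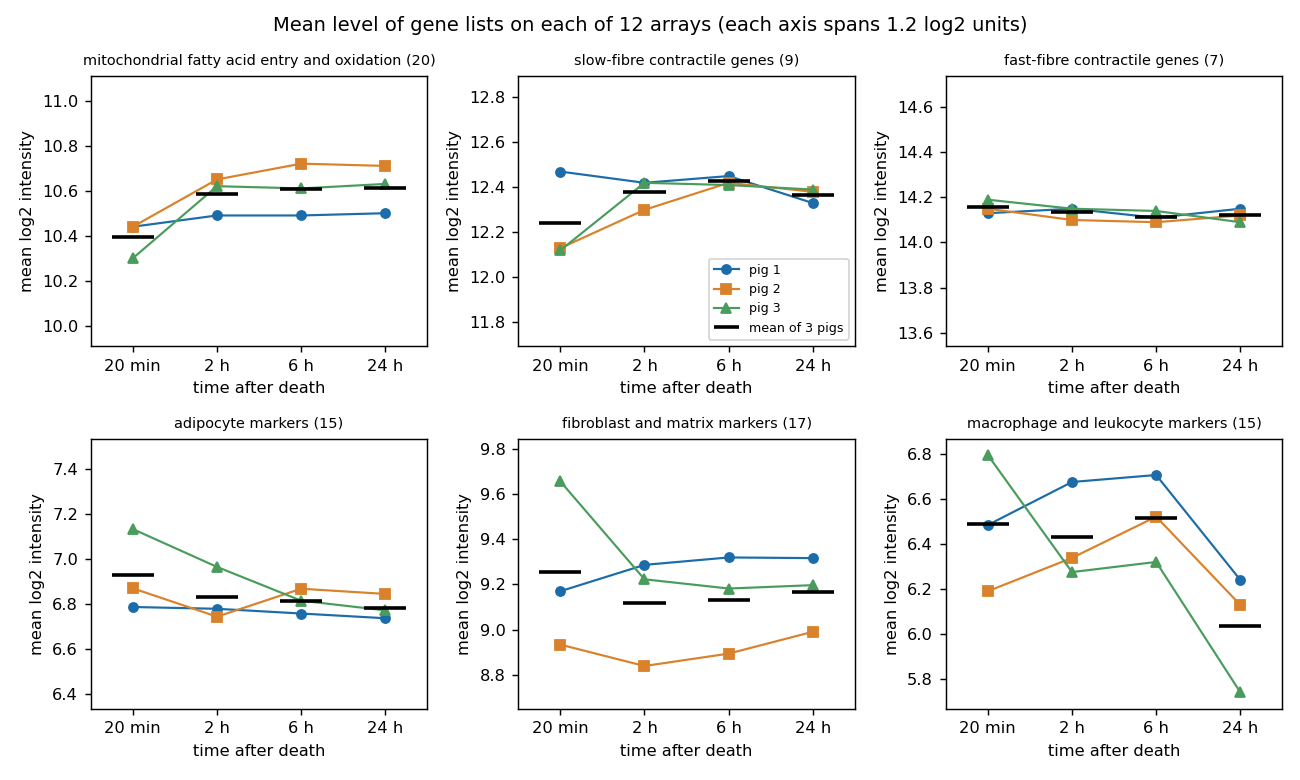
Mean log2 intensity of 6 gene lists (vertical axis, number of genes in brackets) at the 4 times after death, with a line for each pig and a black bar for the mean of 3 pigs. At 20 min pig 3 had the highest mean of adipocyte, fibroblast and macrophage markers, and pig 1 the highest mean of slow-fibre genes.

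The genes around LPL, FABP3 and PNPLA2 in the pathway were taken list by list, with the brightest probe set for each gene. At 24 h, 6.28% of all 6765 genes had a higher mean at unadjusted p under 0.05 and 8.71% a lower one, and 0 genes of the lists named here passed after adjustment over all probe sets. The median change of all genes was -0.01, and 47.2% of them had a higher mean at 24 h. The members' own median was 0.43 over their 3 genes. LIPE, DGAT2, PPARG, FABP4 and GPIHBP1 stand in more than 1 list.

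Among 7 partners of lipoprotein lipase and lipoprotein receptors, the median change at 24 h was 0.07, with 1 gene higher and 1 lower at unadjusted p under 0.05. GPIHBP1, which anchors lipoprotein lipase to capillary endothelium, had levels of 6.85, 7.17 and 7.04 at 24 h and of 6.71, 6.97 and 6.70 at 20 min in pigs 1, 2 and 3. Its change was 0.23 ± 0.11 (SD over 3 pigs, limma adjusted p = 0.340), above 20 min in each pig. APOC3, an apolipoprotein that inhibits lipoprotein lipase, changed by 0.12 ± 0.13 and the very-low-density lipoprotein receptor gene VLDLR by -0.18 ± 0.14. APOE, an apolipoprotein that macrophages also make, changed by -0.62 ± 0.83, with -1.57 in pig 3.

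Of 13 other genes of fatty acid uptake and binding, 4 had higher and 1 lower means at 24 h at unadjusted p under 0.05, with a median change of 0.09. SLC27A1, a fatty acid transport protein of muscle, had changes of 0.16, 0.26 and 0.53 in pigs 1, 2 and 3 (mean 0.31 ± 0.19, limma adjusted p = 0.247). FABP6, the bile acid-binding member of the family known from the ileum, changed by 0.32 ± 0.24 at a low level of 4.29 over 12 arrays. FABP4 at -0.37 ± 0.83 and ACBD3, a Golgi protein with an acyl-CoA-binding domain, at -0.32 ± 0.26 had the lowest changes.

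Acyl-CoA synthetases activate fatty acids by coupling them to coenzyme A. Of the 7 measured, 2 had higher and 0 lower means at 24 h at unadjusted p under 0.05, with a median of 0.05. ACSL1, the main long-chain form of muscle and fat, had levels of 12.93, 12.62 and 12.85 at 24 h and of 12.57, 12.40 and 12.26 at 20 min in pigs 1, 2 and 3. It was above its 20 min level in every pig at every later time, by 0.31 ± 0.12 at 2 h, 0.30 ± 0.06 at 6 h and 0.39 ± 0.19 at 24 h (limma adjusted p = 0.193 at 24 h). Unlike FABP3, ACSL1 changed by a clear amount in pig 1, by 0.35 at 24 h. ACSS2, the cytosolic acetyl-CoA synthetase, changed by 0.20 ± 0.13, and ACSL6 and ACSL5 by 0.01 ± 0.08 and -0.12 ± 0.21.

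PNPLA2 belongs with the genes of lipolysis and the lipid droplet, whose changes lay on both sides of 0. Of 18 other genes, 11 had a higher and 7 a lower mean at 24 h, with a median of 0.05, and 1 was higher and 2 lower at unadjusted p under 0.05. LIPE, hormone-sensitive lipase, which follows adipose triglyceride lipase in the chain, changed by 0.01, 0.50 and 0.30 in pigs 1, 2 and 3 (mean 0.27 ± 0.25, limma adjusted p = 0.431). CIDEB, a lipid droplet protein known from liver, changed by 0.27 ± 0.35. LIPA, the lysosomal acid lipase, and DGAT2, which makes triglyceride, had the lowest changes, -0.49 ± 0.56 and -0.42 ± 0.86, with -1.13 and -1.41 in pig 3. Outside the rule for naming genes, and chosen after their values were seen, ABHD5, the activator of adipose triglyceride lipase, changed by -0.16 ± 0.22, and MGLL, the monoglyceride lipase that ends the chain, by 0.05 ± 0.04.

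Mitochondrial entry and oxidation of fatty acids, the fate of much of the fatty acid that FABP3 carries, had the highest median of the 13 lists at 24 h. It was 0.23 over 20 genes, of which 19 had a higher mean and 13 passed at unadjusted p under 0.05 as higher and 0 as lower. At 2 h these were 8 of 20 and at 6 h 10 of 20, where 4.02% and 4.82% of all genes were higher. The lists were chosen with earlier results of these data known, so these counts are no independent test of the list. Its genes also share the same 3 pigs and the same 20 min arrays. The list medians in pigs 1, 2 and 3 were 0.07, 0.26 and 0.31 at 24 h. ACADVL, an enzyme of long-chain acyl-CoA oxidation, and ACAA2, a mitochondrial thiolase of fatty acid oxidation, changed by 0.41 ± 0.40 and 0.41 ± 0.30 (limma adjusted p = 0.260 and 0.241). CPT1A, the liver form of the carnitine palmitoyltransferase, changed by -0.26 ± 0.38 and CRAT, carnitine acetyltransferase, by 0.07 ± 0.11. CPT1B, the muscle form, named outside the rule and after its values were seen, changed by 0.41 ± 0.31 (limma adjusted p = 0.219). Over the 12 pig-centred arrays the list mean correlated with FABP3 at r = 0.949, with the brighter PNPLA2 probe set at r = 0.946 and with the brighter LPL probe set at r = 0.832. With the dimmer LPL and PNPLA2 probe sets the r values were 0.839 and 0.592. Slow-fibre contractile genes had r values of 0.866 with FABP3 and of 0.712 and 0.799 with the brighter LPL and PNPLA2 probe sets. With the dimmer ones of LPL and PNPLA2 these were 0.969 and 0.713. On the 20 min array of pig 3 the oxidation list mean was 10.3, the lowest of the 12 arrays. The counts and r values of that list were not computed without that array.

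**Figure D4:**
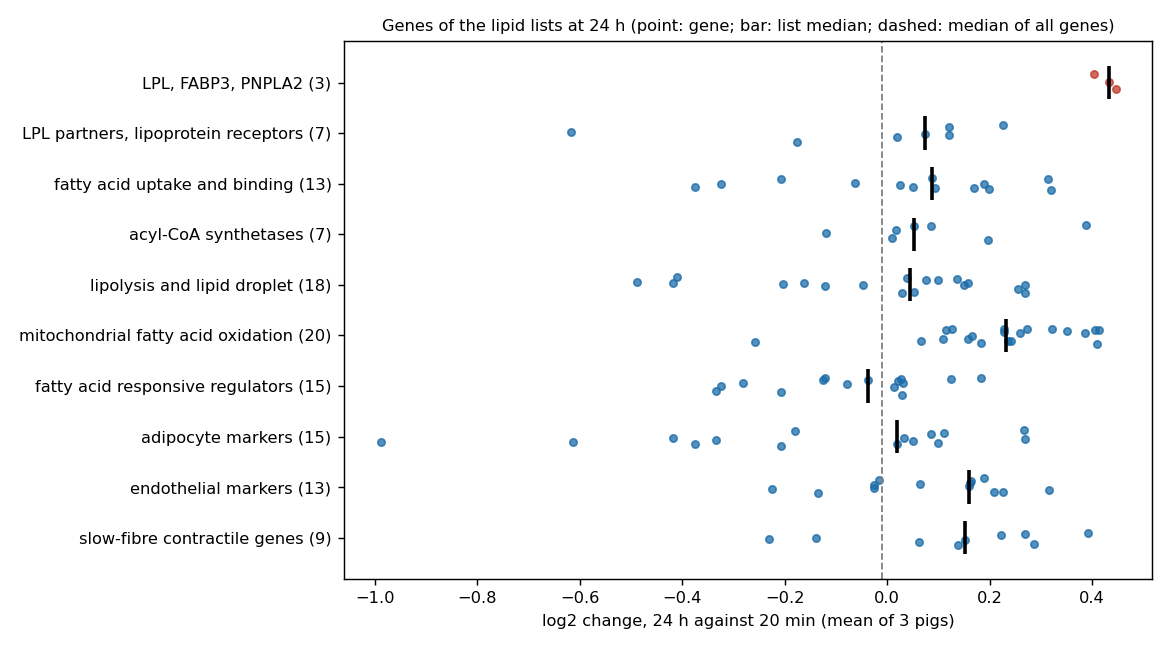
Log2 change at 24 h against 20 min (horizontal axis, mean of 3 pigs) of each gene in 10 lists, with a black bar for the list median and a dashed line for the median of all 6765 genes, -0.01. LPL, FABP3 and PNPLA2 lie between 0.40 and 0.45, and the highest oxidation gene at 0.41; some genes stand in more than 1 list.

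Regulators that respond to fatty acids were split in direction. Of 15, 7 had a higher and 8 a lower mean at 24 h, with a median of -0.04, and 0 were higher and 1 lower at unadjusted p under 0.05. PRKAA2, a catalytic subunit of the energy sensor AMPK, was lower in each pig, by -0.26, -0.31 and -0.43 in pigs 1, 2 and 3 (limma adjusted p = 0.222). PPARGC1A, a coactivator of oxidative genes, had changes of -1.07, -0.29 and 0.38, with opposite signs in pigs 1 and 3. The mitochondrial uncoupling protein gene UCP3 changed by 0.18 ± 0.16 and the transcription factor gene FOXO3 by 0.13 ± 0.07.

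The genes most like each member were sought among 6764 other genes by Pearson's r over the 12 arrays after each pig's mean was taken off. For FABP3 these were MYH7, the slow myosin heavy chain (r = 0.985), the mitochondrial carrier gene SLC25A11 (0.981), PRDX2 (0.976), ACADVL (0.975) and COX10 (0.971). For the brighter PNPLA2 probe set they were ATP5G3 (r = 0.963) and COX7A1 (0.960), subunits of ATP synthase and cytochrome oxidase, the water channel gene AQP1 (0.958), MYH7 (0.956) and SLC25A11 (0.956). For the brighter LPL probe set they were FAAH (r = 0.924), ACSL1 (0.921), PRKCSH (0.919), ABCB6 (0.915) and BIVM (0.914). The lowest r values for FABP3 were those of ENPP1 (-0.983), WLS (-0.972) and PTGR1 (-0.972). For PNPLA2 they belonged to PTGR1 (-0.982), F2RL2 (-0.962) and WLS (-0.959), and for LPL to STMN1 (-0.948), GAPDH (-0.944) and RAB24 (-0.942). An r above 0.7 was found for 8.15% of the other genes with FABP3, 7.78% with PNPLA2 and 5.54% with LPL, over arrays of the same 3 animals. Without pig 3, the r of MYH7 with FABP3 was 0.951 over 8 arrays and that of ACSL1 with LPL 0.829.

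MYH7 itself had levels of 14.38, 14.41 and 14.44 at 24 h and of 14.39, 14.26 and 14.15 at 20 min in pigs 1, 2 and 3. Its change at 24 h was 0.14 ± 0.15 (limma adjusted p = 0.480). Whether differences are compressed at levels as high as those of MYH7 and FABP3 was not tested.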

How the data were processed

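RNA of 12 muscle portions was biotin-labelled for 1-colour porcine arrays, per the labels' protocols. The authors deposited log2 intensities for probe sets, which came from RMA run in affy per the submitters' processing notes. Its version and parameters are not given here by any source. RMA makes the arrays share 1 distribution, so a shift of all transcripts alike would not show. No detection calls were used, and precision is limited by how many arrays there were.

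Of 24123 probe sets, 124 controls were left out and 23999 tested without a filter. The 2016 platform annotation gave 10099 probe sets 1 symbol, 198 several and 13826 none; 9989 symbols were matched to RefSeq (Sscrofa11.1) by gene ID. Gene lists used the brightest probe set of each of 6765 genes.

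Groups and pig numbers came from the titles. With R 4.3.3 and limma 3.58.1, 1 model held time and pig as a fixed block (6 residual and 5.67 prior degrees of freedom). Two-sided p-values were adjusted by Benjamini-Hochberg over all probe sets and called under 0.05. Their error is the spread left once time and pig are taken out, moderated by a prior drawn from all probe sets. That spread comes from only 3 pigs. The same animals pair the arrays; deviations from the time means correlated with r between 0.409 and 0.656 in the 18 pairs of 1 pig. The model was run on simulated data with independent noise. Detection was required there only at a log2 change of 2, above the members' mean changes, so it does not bear on power at their size. Besides the members, the 2 highest and 2 lowest changes of each pathway list at 24 h and the 5 most and 3 least alike genes are named. ADIPOQ, LEP, ABHD5, MGLL and CPT1B are named outside this rule. Members and lists were chosen with earlier results of these data known. Alternatives covered the block, normalisation, centring, a filter on dim probe sets, prior, array weights, probe sets per gene, arrays in the fit and each pig left out. The 20 min array of pig 3 was left out as an alternative chosen after seeing the data.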

Additional observations from a re-analysis of the deposited data

How the results depend on the processing

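Against 20 min, the 5 probe sets of LPL, FABP3 and PNPLA2 were higher in all 204 values computed over 14 alternatives. Of these values, 0 passed the adjusted threshold (limma adjusted p from 0.111 to 0.999). Many of the signs were fixed in advance, because several alternatives leave the mean changes as they were in a balanced design. These were no replicate block, a random block, the filter on dim probe sets, the prior, 1 probe set per gene and only the arrays of the 2 times. The fit with no replicate block for pig gave an adjusted p = 0.805 for the brighter LPL probe set, FABP3 and the brighter PNPLA2 probe set at 24 h. The cause of the shifts below was not tested. The number of all probe sets past the threshold at 24 h against 20 min, 1 in the fit reported, was 0 with no replicate block, 0 when the block was random, 0 with only the arrays of the 2 times, and 0 to 2 with a pig or the 20 min array of pig 3 left out. For any time difference, also 1, it was 0 with no replicate block, 0 with a random block, 0 without the dimmest 40% of probe sets, 0 with cyclic loess and 0 to 3 with arrays left out. At 6 h against 20 min it was 1 with array weights, against 0. At 24 h against 6 h it was 4 with only the arrays of those times and 0 to 9 with arrays left out, and at 24 h against 2 h 1 and 0 to 5, against 0 in both. Without the 20 min array of pig 3 these last counts were 9 and 5.

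Between the later times the members' small differences turned sign in places. For the brighter LPL probe set, 24 h against 6 h was 0.0222 with cyclic loess, 0.0379 with repeated quantile normalisation, 0.0288 when centred on the brightest 10% of probe sets and -0.195 to 0.0987 with arrays left out, against -0.0117. Its 6 h against 2 h was 0.00596 with array weights and its 24 h against 2 h -0.204 to 0.0541 with arrays left out. With arrays left out, the dimmer LPL probe set ranged from -0.0315 to 0.184 at 6 h against 2 h, FABP3 from -0.0392 to 0.0741 at 24 h against 6 h and from -0.0158 to 0.104 at 24 h against 2 h, and the dimmer PNPLA2 probe set from -0.269 to 0.277 at 6 h against 2 h (-0.0211 with array weights) and from -0.538 to 0.0990 at 24 h against 2 h. Signal over background is not given in the sources used here, so its limit could not be stated. Groups of 3 are too small for a check of single outlying arrays.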
